A study of Mus musculus with 23 samples.

Results

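The somatostatin receptor genes Sstr1, Sstr2, Sstr3, Sstr4 and Sstr5 were followed in β-TC6 cells, an insulin-producing mouse line derived from an insulinoma, in which the circadian clock had been disrupted. Members were taken by gene symbol, through the Ensembl gene identifiers of the expression table, and 4 of the 5 receptor genes had a row among the 20599 genes of that table. Sstr4 had no row and its mRNA is not analysed here. RNA-seq was available for 3 libraries of Bmal1-/- cells, 3 libraries of Clock-/- cells and 3 libraries of WT cells. In Bmal1-/- cells exon 8 of Bmal1 was deleted with CRISPR-Cas9 and homology-directed repair, in Clock-/- cells the Clock gene lacked exons 6 and 7, and WT cells carried no engineered mutation. All cells were kept in the same untreated culture between passages 5 and 15. Each knockout line was grown from a picked colony, so that a line is 1 clone and the 3 libraries of a genotype came from wells of 1 line. A p-value here measures the spread between wells, and an effect of the deleted gene cannot be told apart from other differences between the clone and the WT cells. Chromatin immunoprecipitation (ChIP-seq) peak lists for THRAP3, an RNA-binding protein linked to splicing, were available for 2 Bmal1-/- and 2 WT samples.

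Somatostatin receptors are G protein-coupled receptors for the peptides somatostatin and cortistatin. They act through inhibitory Gi/o proteins, which lower cyclic AMP by restraining adenylyl cyclase, open inwardly rectifying potassium channels and close voltage-gated calcium channels. In the islet, somatostatin from delta cells restrains the release of insulin from beta cells and of glucagon from alpha cells through these receptors. BMAL1 and CLOCK form the heterodimer that drives the circadian clock by binding E-box elements in DNA, and the comparison of each knockout with WT asks how receptor mRNA levels differ when either partner is disrupted. By sequence and pharmacology the family is split into a group made of Sstr2, Sstr3 and Sstr5 and a group made of Sstr1 and Sstr4.

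The reference proteins of the receptors are close relatives, as translated from the coding sequences of the GENCODE vM21 transcripts. SSTR1 has 391 residues, SSTR2 has 369 (346 in a spliced isoform), SSTR3 has 428, SSTR4 has 385 and SSTR5 has 362. The closest pairs were SSTR1 with SSTR4, at 63.4% identical residues over the aligned positions, and SSTR3 with SSTR5, at 62.3%. SSTR2 was closest to SSTR5, at 55.7%, and SSTR1 and SSTR3 were the most distant pair, at 48.1%. The genes lie on different chromosomes of the mm10 (GRCm38) build and carry the whole receptor in a single coding exon, apart from the spliced isoform of Sstr2.

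The libraries were compared as TPM, a measure of transcripts that corrects for gene length and for the size of the library. The TPM values were whole multiples of the value of 1 read, and the reads recovered in this way over 15767 genes came to 13289501 to 19750523 per Bmal1-/- library, 9479561 to 12822749 per Clock-/- library and 11281202 to 14026517 per WT library. Fewer genes had a value above 0 in Bmal1-/- libraries, at 17908 to 18410, than in Clock-/- libraries, at 19589 to 19808, or in WT libraries, at 19694 to 19912. The authors screened the clones by qPCR and Western blot and report that the chosen lines lacked functional Bmal1 or Clock mRNA and protein. At the level of the whole gene, the mRNA of the targeted genes did not track the deletions. Bmal1 (listed as Arntl) had 3.32 to 3.52 TPM in Bmal1-/- libraries and 3.52 to 4.22 TPM in WT libraries, and Clock had 28.0 to 46.6 TPM in Clock-/- libraries and 40.9 to 49.7 TPM in WT libraries, which does not read the deleted exons. The label of an insulin-producing line was checked against 12 beta cell markers, all of which had a row, and they summed to 40566 to 43163 TPM in Bmal1-/- libraries, 34469 to 40288 TPM in Clock-/- libraries and 55739 to 58179 TPM in WT libraries, mostly from Ins2 and Iapp. Some of these markers were far lower in Clock-/- libraries, and those given here were named after their values were seen. Ins1 had 57.7 to 64.0 TPM in Clock-/- and 2277 to 2359 TPM in WT libraries. Slc2a2, the glucose transporter gene, had 5.80 to 8.25 TPM in Clock-/-, 34.2 to 50.7 TPM in Bmal1-/- and 102 to 113 TPM in WT libraries. Ucn3 had 0, 0 and 0.137 TPM in Clock-/- and 1.27 to 1.48 TPM in WT libraries. Others were higher, such as Nkx6-1 at 468 to 525 TPM in Clock-/-, 642 to 656 TPM in Bmal1-/- and 250 to 273 TPM in WT libraries. In the limma fit described below, 4 of the 12 rose and 7 fell in Clock-/- cells, against 9.5% and 14.4% of all genes tested. In Bmal1-/- cells 2 rose and 5 fell, against 18.4% and 21.0%. Of 10 exocrine, duct, stromal and immune markers, 5 had a row, and they summed to 1.64 to 2.70 TPM in Bmal1-/- libraries, 1.89 to 4.16 TPM in Clock-/- libraries and 8.32 to 9.04 TPM in WT libraries. Most of each sum was the exocrine gene Cela1, at 1.09 to 2.05 TPM in Bmal1-/-, 1.48 to 3.48 TPM in Clock-/- and 7.48 to 8.43 TPM in WT libraries. Each of the others was at or under 0.484 TPM in every library.

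Receptor mRNA as a whole was lower in both knockout lines and its make-up differed. The summed TPM of the receptor genes was 26.0 ± 2.01 in Bmal1-/- cells, 49.7 ± 11.2 in Clock-/- cells and 108 ± 2.25 in WT cells (SD, n = 3 each). The ranges were 24.1 to 28.1 TPM in Bmal1-/- libraries, 36.9 to 57.6 TPM in Clock-/- libraries and 106 to 110 TPM in WT libraries, with no overlap. Sstr3 supplied most of the sum in every library, with a share of 80.4% to 80.7% in Bmal1-/- libraries, 90.3% to 92.2% in Clock-/- libraries and 94.6% to 94.7% in WT libraries. The share of Sstr2 was 18.5% to 18.8% in Bmal1-/- libraries, 6.90% to 9.05% in Clock-/- libraries and 0.671% to 1.13% in WT libraries. Sstr5 made up 0.499% to 0.934% in Bmal1-/- libraries, 0.218% to 0.601% in Clock-/- libraries and 2.29% to 3.43% in WT libraries. Sstr1 made up 0% to 0.245% in Bmal1-/- libraries, 0.343% to 0.803% in Clock-/- libraries and 1.17% to 1.89% in WT libraries. The order of levels was thus Sstr3, Sstr5, Sstr1, Sstr2 in WT cells, where the lowest WT library of Sstr1 (1.25 TPM) was only just above the highest of Sstr2 (1.19 TPM). In both knockouts Sstr2 was the second receptor, and Sstr5 and Sstr1 were each at or under 0.296 TPM in every library, with overlapping ranges in Clock-/- cells.

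**Figure D1:**
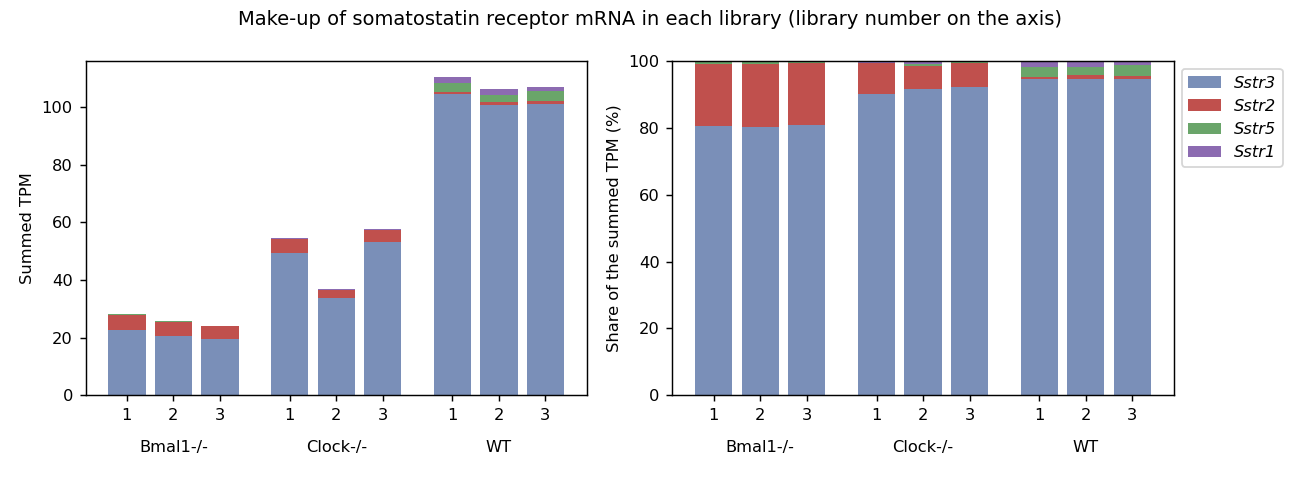
Summed TPM of the 4 somatostatin receptor genes with a row (left) and the share of each receptor in that sum in percent (right), for each of 3 Bmal1-/-, 3 Clock-/- and 3 WT libraries. The bars reach 24.1 to 28.1 TPM in Bmal1-/- libraries, 36.9 to 57.6 in Clock-/- libraries and 106 to 110 in WT libraries, and the Sstr2 segment is widest in Bmal1-/- libraries at 18.5% to 18.8%.

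The tests for each receptor came from a limma fit on log2(TPM + 1) over 15031 genes in all 9 libraries, and a gene is said to have risen or fallen where its Benjamini-Hochberg adjusted p was under 0.01. At that threshold 18.4% of the genes tested rose and 21.0% fell in Bmal1-/- cells, and 9.5% rose and 14.4% fell in Clock-/- cells. The median log2 fold change of all tested genes was -0.04 in Bmal1-/- cells and -0.02 in Clock-/- cells. Sstr1 and Sstr5 passed the filter on low values (1 TPM in at least 3 libraries) only through WT, and Sstr2 passed it only through the knockouts, so the number of receptors past the test says nothing of the family as such. An exact two-sided permutation test of 3 against 3 libraries gave p = 0.1, the smallest it allows, for each of the 4 receptors in each knockout. The knockouts share the WT libraries, so their fold changes are not independent of each other.

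Sstr3 (ENSMUSG00000044933, chr15:78537008-78544685, minus strand) was the most abundant receptor of these cells. It is a Gi/o-coupled receptor that in neurons is sorted to the primary cilium. It had 22.6, 20.7 and 19.5 TPM in Bmal1-/- libraries, 49.3, 33.8 and 53.1 TPM in Clock-/- libraries and 104.6, 100.5 and 101.2 TPM in WT libraries. The 3 genotypes did not overlap, and library 2 of Clock-/-, the shallowest of the 9, was the lowest of its genotype. Mean Sstr3 fell to 0.205 times the WT mean in Bmal1-/- cells, or -2.24 as a log2 fold change (SE 0.14, limma adjusted p = 1.57e-06). Sstr3 fell less in Clock-/- cells, to 0.445 times the WT mean and a log2 fold change of -1.18 (SE 0.14, limma adjusted p = 1.84e-04). Sstr3 was also lower in Bmal1-/- than in Clock-/- cells, by a log2 difference of -1.06 (SE 0.14, limma adjusted p = 1.72e-04), in a contrast in which 44.6% of the genes tested differed. Without the shallowest Clock-/- library the Clock-/- change of Sstr3 was -0.98 and the difference between the knockouts was -1.25.

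Because BMAL1 and CLOCK bind E-boxes, the RefSeq promoter windows of the receptors, from 250 bases before to 50 bases after a start site, were searched for the E-box CACGTG and for the looser pattern CANNTG, which includes it. Both patterns read the same on either strand. A window was listed for Sstr2 and Sstr4 and for 2 start sites of Sstr3. None was listed for Sstr1 or Sstr5, so the promoters of these receptors, which also fell in the knockouts, were not searched. The window of the upstream Sstr3 start (chr15, base 78544345) held 1 CACGTG and 4 CANNTG in all, and the window of the downstream start (base 78541406) held neither. The Sstr2 window held neither, and the Sstr4 window held 2 CANNTG but no CACGTG. Of 32817 such windows in the genome, 7.15% held CACGTG and 72.3% held CANNTG. The E-box of Sstr3 is shown because Sstr3 carries most of the receptor mRNA. It lies at positions -31 to -26 from the RefSeq start, where -1 is the last base before the start, and inside the first exon of the longer GENCODE transcript. The 30 bases at chr15:78544359-78544388, minus strand, 5′ to 3′ from RefSeq (GRCm38.p6) with the E-box in capitals, are as follows.
Sstr3 E-box: tccggcaccctcCACGTGtcctggagatgg
Binding of BMAL1 or CLOCK at this match was not measured here.

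Sstr5 (ENSMUSG00000050824, chr17:25489875-25497288, minus strand) is a receptor through which somatostatin restrains insulin release from rodent beta cells. Sstr5 had 0.206, 0.240 and 0.120 TPM in Bmal1-/- libraries, 0.119, 0.222 and 0.148 TPM in Clock-/- libraries and 3.08, 2.44 and 3.67 TPM in WT libraries. The annotation version of Sstr5 differed from that of the reference lengths, but its values came out as whole reads in all 9 libraries. They rested on 4, 6 and 2 reads in Bmal1-/- libraries, 2, 3 and 2 reads in Clock-/- libraries and 53, 39 and 55 reads in WT libraries. Every knockout library was below every WT library, and the knockouts overlapped each other. Sstr5 fell by 1.76 on the log2 scale in Bmal1-/- cells (SE 0.15, limma adjusted p = 1.12e-05) and by 1.79 in Clock-/- cells (SE 0.15, limma adjusted p = 1.77e-05). The addition of 1 to each TPM compresses changes at such low levels. With reads pooled per genotype and scaled by the reads that 1 TPM stood for, Sstr5 was at 0.0646 times the WT level in Bmal1-/- cells (exact 95% interval 0.0326 to 0.116) and 0.0524 times the WT level in Clock-/- cells (0.0207 to 0.111), intervals that cover counting error only. The difference between the knockouts was 0.03 (SE 0.15, limma adjusted p = 0.873).

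Sstr2 (ENSMUSG00000047904, chr11:113619342-113626028, plus strand) was the receptor that rose in both knockouts. It is the main receptor on alpha cells in rodent islets and the main target of the drug octreotide. Sstr2 had 5.20, 4.80 and 4.53 TPM in Bmal1-/- libraries, 4.94, 2.54 and 4.15 TPM in Clock-/- libraries and 0.741, 1.19 and 0.851 TPM in WT libraries. The reads behind these values numbered 79, 94 and 59 in Bmal1-/- libraries, 65, 27 and 44 in Clock-/- libraries and 10, 15 and 10 in WT libraries. All knockout libraries lay above all WT libraries, the knockouts overlapped each other, and library 2 of Clock-/- was again the lowest of its genotype. Sstr2 rose by 1.60 on the log2 scale in Bmal1-/- cells (SE 0.19, limma adjusted p = 8.41e-05) and by 1.31 in Clock-/- cells (SE 0.19, limma adjusted p = 5.52e-04). By pooled reads, scaled in the same way, Sstr2 was at 5.24 times the WT level in Bmal1-/- cells (exact 95% interval 3.66 to 7.71) and 4.27 times the WT level in Clock-/- cells (2.93 to 6.39). The difference between the knockouts was 0.29 (SE 0.19, limma adjusted p = 0.217).

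Sstr2 lies within Slc39a11, a zinc transporter gene on the opposite strand (chr11:113244853-113650079). Slc39a11 had 34.2, 33.1 and 35.7 TPM in Bmal1-/- libraries, 55.98, 46.3 and 52.6 TPM in Clock-/- libraries and 28.8, 25.0 and 23.9 TPM in WT libraries. It rose by 0.39 in Bmal1-/- cells (SE 0.09, limma adjusted p = 0.00569, lost in 11 of 28 alternative settings) and by 0.97 in Clock-/- cells (SE 0.09, limma adjusted p = 4.07e-05). The library kit marked strand, but whether strand was used in counting is not given in the sources used here, and the part of Slc39a11 reads in the Sstr2 values was not tested.

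The Sstr2 promoter is shown because this receptor rose where the others fell. Its window held TGACGTCA, the palindromic cyclic AMP response element, a match noticed after the sequence was read and present in 1.79% of the 32817 windows. The match lies at positions -58 to -51 from the RefSeq start and is in capitals in the 250 bases before that start (chr11:113619077-113619326, plus strand, RefSeq GRCm38.p6), written 5′ to 3′.
Sstr2 promoter: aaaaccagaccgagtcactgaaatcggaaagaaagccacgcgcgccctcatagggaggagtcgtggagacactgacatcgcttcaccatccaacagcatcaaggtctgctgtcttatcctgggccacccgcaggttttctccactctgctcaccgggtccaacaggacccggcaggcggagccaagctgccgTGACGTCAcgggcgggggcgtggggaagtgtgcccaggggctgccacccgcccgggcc
No measurement here reads the use of this element.

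Sstr1 (ENSMUSG00000035431, chr12:58211772-58214444, plus strand), the receptor grouped with Sstr4, was the lowest receptor in Bmal1-/- cells. Sstr1 had 0.0689, 0 and 0 TPM in Bmal1-/- libraries, 0.239, 0.296 and 0.197 TPM in Clock-/- libraries and 2.02, 2.00 and 1.25 TPM in WT libraries. Its reads came to 1 in all 3 Bmal1-/- libraries together, 8 in the Clock-/- libraries and 64 in the WT libraries. The ranges of the 3 genotypes did not overlap. Sstr1 fell by 1.42 on the log2 scale in Bmal1-/- cells (SE 0.16, limma adjusted p = 5.73e-05) and by 1.13 in Clock-/- cells (SE 0.16, limma adjusted p = 4.40e-04). By pooled reads, scaled as for Sstr5, it was at 0.0124 times the WT level in Bmal1-/- cells (exact 95% interval 0.000308 to 0.0714) and 0.137 times the WT level in Clock-/- cells (0.0569 to 0.288). The difference between the knockouts was -0.28 (SE 0.16, limma adjusted p = 0.155), which did not pass the test, and it was -1.52 with a pseudocount of 0.1 (limma adjusted p = 0.0158) and -0.013 with quantile normalisation (limma adjusted p = 0.956).

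**Figure D2:**
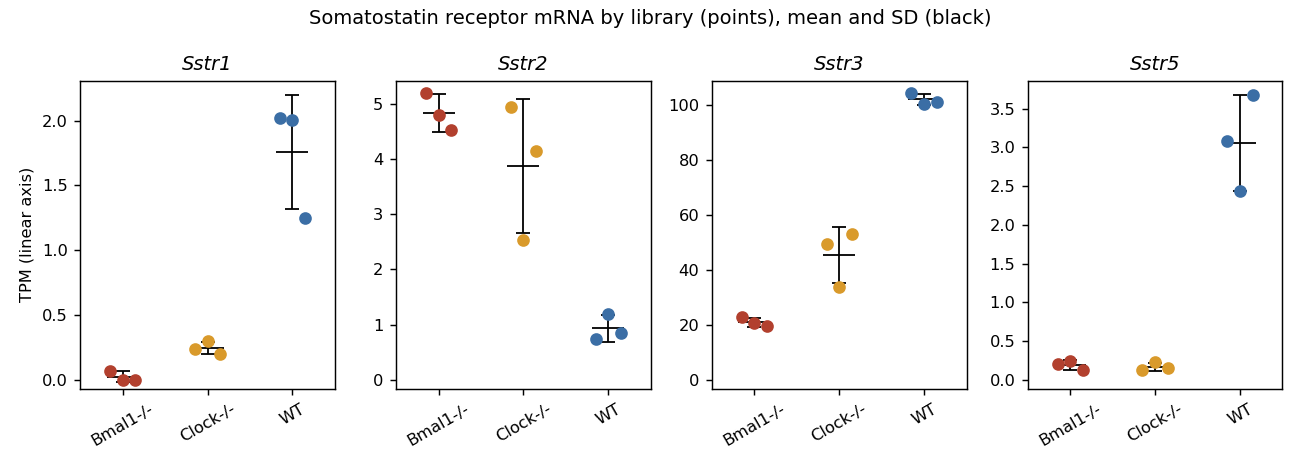
TPM of Sstr1, Sstr2, Sstr3 and Sstr5 on linear axes that differ between panels. Points are the 3 libraries of Bmal1-/-, Clock-/- and WT cells, and black bars are the mean and SD. Sstr1, Sstr3 and Sstr5 are lower in every knockout library than in every WT library, and Sstr2 is higher, at 2.54 to 5.20 TPM in the knockouts and 0.741 to 1.19 TPM in WT.

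Over the 9 libraries log2(TPM + 1) of Sstr2 ran opposite to that of the other receptors, with Pearson correlations of -0.943 to Sstr1, -0.855 to Sstr3 and -0.953 to Sstr5. The correlations among Sstr1, Sstr3 and Sstr5 lay between 0.847 and 0.935. These describe 9 libraries in 3 genotypes of 3 wells, in which the step between genotypes carries most of the spread.

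The ligand genes were also measured in the same cells. Sst, the gene of somatostatin and a defining product of delta cells, moved in opposite directions in the knockouts. Sst had 21.9, 16.8 and 22.8 TPM in Bmal1-/- libraries, 364.8, 372.6 and 286.9 TPM in Clock-/- libraries and 88.2, 82.9 and 92.9 TPM in WT libraries, with no overlap between genotypes. It fell by 2.06 on the log2 scale in Bmal1-/- cells (SE 0.13, limma adjusted p = 1.31e-06) and rose by 1.94 in Clock-/- cells (SE 0.13, limma adjusted p = 3.26e-06). The difference between the knockouts was -4.00 (SE 0.13, limma adjusted p = 1.84e-08). Sstr1, Sstr3 and Sstr5 were lower and Sstr2 higher in Bmal1-/- cells, where Sst fell, and in Clock-/- cells, where Sst rose. The part of Sst in the receptor levels was not tested.

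The 2 other delta cell markers tested did not follow Sst. Ghsr, the ghrelin receptor of delta cells, rose in both knockouts, at 3.21 to 3.65 TPM in Bmal1-/- libraries, 2.46 to 3.69 TPM in Clock-/- libraries and 0.808 to 1.11 TPM in WT libraries. Rbp4, a retinol carrier enriched in delta cells, had 114 to 123 TPM in Bmal1-/- libraries, 70.5 to 81.2 TPM in Clock-/- libraries and 77.8 to 84.8 TPM in WT libraries. It rose by 0.55 in Bmal1-/- cells (SE 0.07, limma adjusted p = 1.25e-04) and in Clock-/- cells had -0.09, which did not pass the test (SE 0.07, limma adjusted p = 0.364). Lepr, the leptin receptor, was too low to be tested, at 0.220, 0.171 and 0.257 TPM in Bmal1-/- libraries, 0.347, 0.487 and 0.372 TPM in Clock-/- libraries and 0.338, 0.194 and 0.233 TPM in WT libraries, so that the Clock-/- libraries were highest, as for Sst, and the Bmal1-/- and WT libraries overlapped. Hhex had no row. The 4 of 5 alpha cell markers with a row summed to 110 to 121 TPM in Bmal1-/- libraries, 1172 to 1329 TPM in Clock-/- libraries and 481 to 510 TPM in WT libraries, a sum made up mostly of the glucagon gene Gcg, whose order was that of Sst. Gcg had 49.4 to 53.9 TPM in Bmal1-/- libraries, 1155 to 1308 TPM in Clock-/- libraries and 462 to 493 TPM in WT libraries. The alpha cell transcription factor genes Irx1 and Irx2 did not share that order. Irx1 had 27.4 to 34.3 TPM in Bmal1-/- libraries, 3.57 to 4.68 TPM in Clock-/- libraries and 6.54 to 7.49 TPM in WT libraries. Irx2 had 32.5 to 35.0 TPM in Bmal1-/- libraries, 12.7 to 16.4 TPM in Clock-/- libraries and 10.9 to 11.99 TPM in WT libraries. The part of other islet cell programmes in the receptor levels was not tested. In bulk RNA a change in the number of cells of a type and a change in mRNA per cell cannot be told apart.

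Cort, the gene of cortistatin, was low. Cort had 0.417, 1.45 and 0.486 TPM in Bmal1-/- libraries, 1.44, 0.894 and 2.98 TPM in Clock-/- libraries and 4.22, 5.55 and 5.66 TPM in WT libraries. It fell by 1.82 in Bmal1-/- cells (SE 0.29, limma adjusted p = 5.42e-04) and by 1.21 in Clock-/- cells (SE 0.29, limma adjusted p = 0.00929). The Clock-/- call of Cort lay at the threshold and was lost in 20 of 27 alternative settings.

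**Figure D3:**
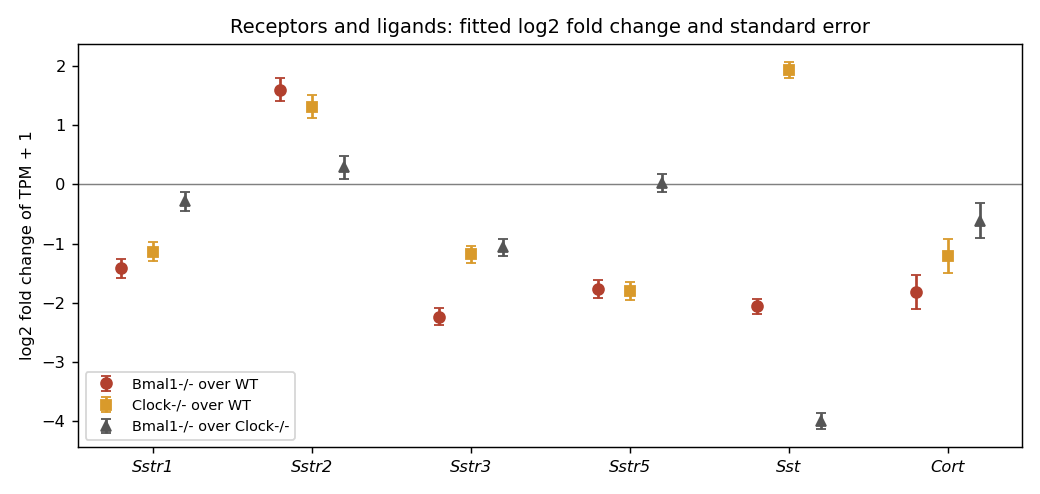
Fitted log2 fold changes of TPM + 1 for the 4 receptors and both ligand genes, with standard errors as bars, for Bmal1-/- over WT, Clock-/- over WT and Bmal1-/- over Clock-/-. The receptors have the same sign in both knockouts, Sstr3 differs between the knockouts by -1.06, and Sst has opposite signs, at -2.06 in Bmal1-/- and 1.94 in Clock-/- cells.

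The genes around Sstr3 were lower in the knockouts too. Of 34 other tested genes within 1 Mb of Sstr3, 24 fell and 0 rose in Bmal1-/- cells, with a median log2 fold change of -0.62, against -0.25 over 546 tested genes of chromosome 15 and -0.04 over all tested genes. In Clock-/- cells 20 of the 34 fell and 1 rose, with a median of -0.43, against -0.28 over chromosome 15 and -0.02 over all. Sstr3 lay beyond most of its neighbours, as 3 of 34 had a fold change as low or lower in Bmal1-/- cells and 5 of 34 in Clock-/- cells. Among these were Lgals2, a galectin gene, at -5.74 in Bmal1-/- and -7.40 in Clock-/- cells, and Kdelr3, which returns escaped proteins to the endoplasmic reticulum, at -6.11 in Bmal1-/- and -3.18 in Clock-/- cells. The third in Bmal1-/- cells was the predicted gene Gm6723, next to Sstr3, at -2.64 in Bmal1-/- and -0.54 in Clock-/- cells, where it did not pass the test (limma adjusted p = 0.0813). C1qtnf6, about 17.3 kb from the Sstr3 start, was the gene that rose in Clock-/- cells, by 0.50, and had 0.22 in Bmal1-/- cells, which did not pass the test (limma adjusted p = 0.0182). These neighbours were named after their values were seen. With the chromosome median subtracted Sstr3 was at -1.99 in Bmal1-/- and -0.90 in Clock-/- cells. That setting takes off the medians of -0.25 and -0.28 over chromosome 15, not those of -0.62 and -0.43 within 1 Mb. The copy number of the region was not measured and its part in the Sstr3 values was not tested.

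Sstr2 also sat among genes that moved with it. Of 7 other tested genes within 1 Mb, 6 rose and 1 fell in Bmal1-/- cells, with a median log2 fold change of 0.95, against 0.35 over 1200 tested genes of chromosome 11. In Clock-/- cells 5 rose and 1 fell, with a median of 0.49, against 0.06 over chromosome 11. Among all genes tested 18.4% rose and 21.0% fell in Bmal1-/- cells, and 9.5% rose and 14.4% fell in Clock-/- cells. The non-coding gene 2610035D17Rik was the neighbour that exceeded Sstr2 in each knockout, at 1.70 in Bmal1-/- and 2.69 in Clock-/- cells, and the adhesion gene Sdk2 was the neighbour that fell, at -1.80 in Bmal1-/- and -2.37 in Clock-/- cells. The part of this regional shift in the Sstr2 values was not tested. The 10 tested genes around Sstr1 had medians of -0.06 in Bmal1-/- and 0.05 in Clock-/- cells, and none fell as far as Sstr1. Of these 10, 2 rose and 2 fell in Bmal1-/- cells, and 2 rose and 0 fell in Clock-/- cells. The 77 tested genes around Sstr5 had medians of 0.15 in Bmal1-/- and 0.07 in Clock-/- cells, and 1 of them, the serine protease gene Prss29, fell as far as Sstr5 or further, at -2.01 in Bmal1-/- and -3.55 in Clock-/- cells. Of these 77, 24 rose and 4 fell in Bmal1-/- cells, and 12 rose and 2 fell in Clock-/- cells.

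**Figure D4:**
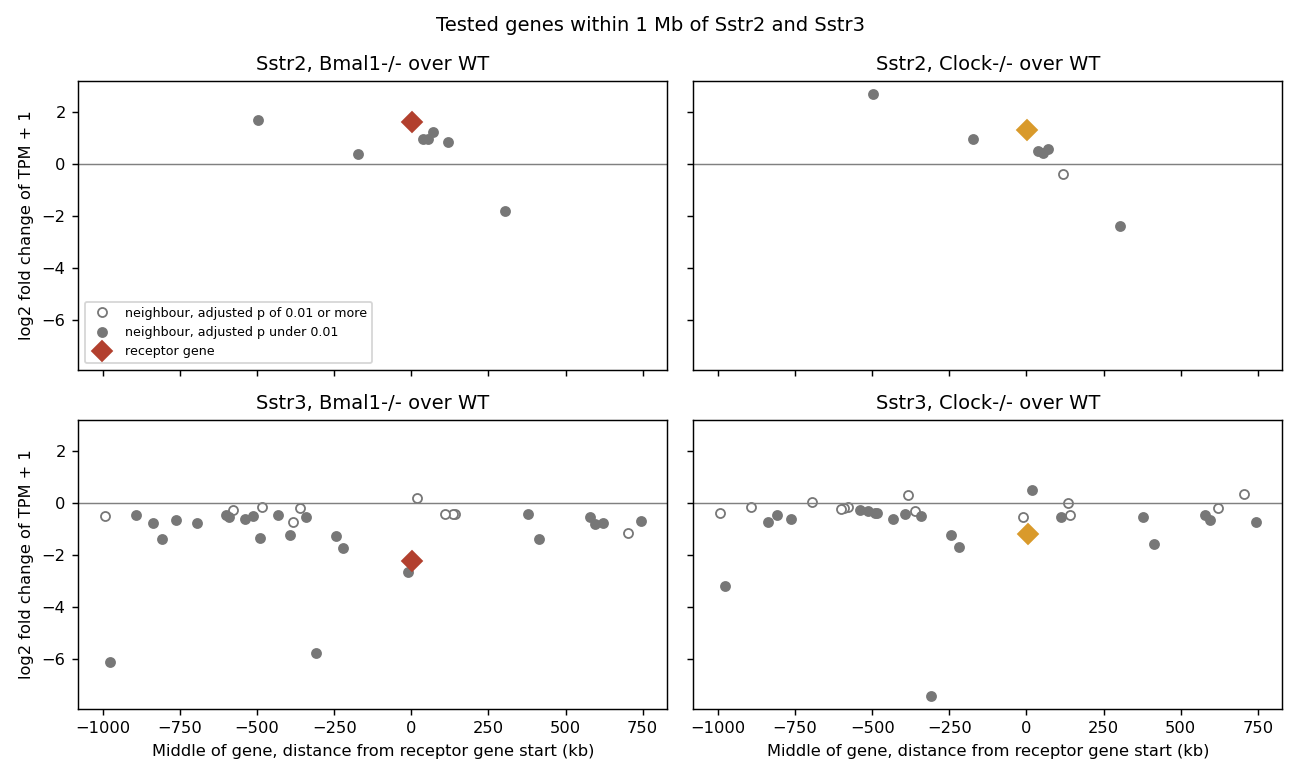
Log2 fold changes of TPM + 1 of the tested genes within 1 Mb of Sstr2 (upper panels, 7 neighbours) and Sstr3 (lower panels, 34 neighbours) in Bmal1-/- (left) and Clock-/- (right) cells over WT, against the distance in kb from the receptor gene start to the middle of each gene. Circles are neighbours, filled where the adjusted p is under 0.01, and the diamond is the receptor. Around Sstr3 most circles lie below 0, with medians of -0.62 in Bmal1-/- and -0.43 in Clock-/- cells, and around Sstr2 most lie above 0.

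THRAP3 ChIP-seq gave a peak at Sstr3 and at no other receptor gene, counting peaks whose centre lay in the gene or within 5 kb of its start. Such a peak was found at 37.6% and 33.9% of 20499 genes in the Bmal1-/- lists and at 2.93% and 19.1% of genes in the WT lists, and the lists held 12949 and 12226 peaks in Bmal1-/- samples and 808 and 6128 peaks in WT samples. The Sstr3 peak lay upstream of the gene, with its centre at -3685 bp from the start in Bmal1-/- sample 1, -3845 bp in Bmal1-/- sample 2 and -3889 bp in WT sample 2. WT sample 1, the list of 808 peaks, had none there. The peak had 8.64 and 10.7 normalised tags in Bmal1-/- samples 1 and 2 and 9.31 normalised tags in WT sample 2, and its fold over input was 9.92 and 6.14 in the Bmal1-/- samples and 5.78 in WT sample 2. These scores lay in the lower part of each list, and no receptor gene had a peak when only the upper scores of a list, or only peaks within 1 kb of a start, were kept. A further peak lay beyond the 3′ end of Sstr3 in Bmal1-/- sample 1 (12.6 normalised tags) and in WT sample 1 (9.76 normalised tags). With 2 lists a genotype and unequal numbers of peaks, the genotypes were not tested against each other.

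The upstream Sstr3 peak is shown as the only THRAP3 peak assigned to a receptor gene. In WT sample 2 it spanned chr15:78548463-78548685, within an intron of a predicted RefSeq model of Sstr3. It held 1 match to CANNTG, in capitals, and no CACGTG, and is written 5′ to 3′ on the minus strand, the strand of Sstr3, from RefSeq (GRCm38.p6).
THRAP3 peak upstream of Sstr3: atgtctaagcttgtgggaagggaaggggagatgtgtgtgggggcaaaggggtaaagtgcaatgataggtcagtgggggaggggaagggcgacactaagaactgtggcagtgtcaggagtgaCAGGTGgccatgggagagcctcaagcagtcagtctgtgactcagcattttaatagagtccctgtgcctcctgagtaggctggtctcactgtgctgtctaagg

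The nearest THRAP3 peaks to Sstr2 had centres 47961 and 32380 bp from its start in Bmal1-/- samples 1 and 2 and 30218 bp away in WT sample 2. The nearest to Sstr5 were 54204 and 54267 bp away in the Bmal1-/- samples and 274411 bp away in WT sample 2. Sstr1 had its nearest peak at 173733 bp or more in every list.

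The Gi/o alpha subunits, which couple the receptors to their targets, were all in the table and tested, 5 of 5. In Bmal1-/- cells 0 rose and 1 fell, which was Gnai3 at -0.59 (SE 0.09, limma adjusted p = 4.73e-04), and the list median was -0.07. In Clock-/- cells 0 rose and 1 fell, which was Gnai1 at -0.74 (SE 0.11, limma adjusted p = 7.41e-04), and the list median was -0.25. Of 15 beta and gamma subunits, which carry the signal to potassium and calcium channels, 10 were tested. In Bmal1-/- cells 2 rose and 2 fell, with Gng12 lowest at -1.81 (SE 0.12, limma adjusted p = 2.22e-06), and in Clock-/- cells 1 rose and 2 fell, with Gng4 at 0.75 (SE 0.10, limma adjusted p = 2.55e-04) and Gnb4 at -0.71 (SE 0.12, limma adjusted p = 0.00146, lost in 1 of 27 alternative settings). The medians of this list were -0.09 in Bmal1-/- and -0.13 in Clock-/- cells. Beside the counts of both lists, 18.4% of all genes tested rose and 21.0% fell in Bmal1-/- cells. In Clock-/- cells these shares were 9.5% and 14.4%.

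The effectors of the receptors gave a mixed picture in which several genes went opposite ways in the knockouts. Over all genes tested 18.4% rose and 21.0% fell in Bmal1-/- cells, and 9.5% rose and 14.4% fell in Clock-/- cells. Between the knockouts 44.6% of all genes tested differed, so differences between them were common outside these lists too. Adenylyl cyclases make the cyclic AMP that Gi/o proteins restrain, and 7 of 9 were tested, of which 2 rose and 2 fell in Bmal1-/- cells (median -0.08) and 1 rose and 3 fell in Clock-/- cells (median -0.18). Adcy1, a calcium-stimulated cyclase, was at 1.13 in Bmal1-/- cells (SE 0.20, limma adjusted p = 9.42e-04) and -1.12 in Clock-/- cells (SE 0.20, limma adjusted p = 0.00166). Adcy3, best known from olfactory neurons and cilia, was at -1.15 in Bmal1-/- cells (SE 0.14, limma adjusted p = 1.11e-04) and 0.94 in Clock-/- cells (SE 0.14, limma adjusted p = 6.96e-04). Adcy6 rose by 1.42 in Bmal1-/- cells (SE 0.13, limma adjusted p = 1.70e-05) and had -0.18 in Clock-/- cells. Adcy9 had 0.91 in Bmal1-/- cells (limma adjusted p = 0.0345) and -1.44 in Clock-/- cells (limma adjusted p = 0.00595), a call lost in 17 of 28 alternative settings.

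Of 8 potassium channel subunits, 3 were tested, and 1 rose in Bmal1-/- cells while 1 rose and 1 fell in Clock-/- cells, with medians of 0.31 and -0.39. The shares over all genes tested were 18.4% risen and 21.0% fallen in Bmal1-/- cells, and 9.5% and 14.4% in Clock-/- cells. Kcnj6, which encodes the inwardly rectifying channel subunit GIRK2 opened by Gi/o beta and gamma subunits, was at 0.89 in Bmal1-/- cells (SE 0.17, limma adjusted p = 0.00155) and -1.13 in Clock-/- cells (SE 0.17, limma adjusted p = 6.62e-04, lost in 1 of 28 alternative settings). The pore and sulfonylurea receptor genes of the beta cell ATP-sensitive channel changed less. Kcnj11 had 0.31 in Bmal1-/- cells (limma adjusted p = 0.0225) and -0.39 in Clock-/- cells (limma adjusted p = 0.0113). Abcc8 had 0.15 in Bmal1-/- cells (limma adjusted p = 0.323) and 0.60 in Clock-/- cells (limma adjusted p = 0.00339, lost in 9 of 28 alternative settings).

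Of 8 voltage-gated calcium channel alpha1 genes, 6 were tested, and 1 rose and 1 fell in each knockout, with medians of -0.12 in Bmal1-/- and 0.01 in Clock-/- cells. The T-type channel genes Cacna1h, at 1.08 (SE 0.20, limma adjusted p = 0.00123), and Cacna1g, at -0.62 (SE 0.14, limma adjusted p = 0.00525), were those in Bmal1-/- cells. In Clock-/- cells the P/Q-type gene Cacna1a was at 0.76 (SE 0.16, limma adjusted p = 0.0044) and the L-type gene Cacna1d at -0.67 (SE 0.16, limma adjusted p = 0.00977). The calls of Cacna1g, Cacna1a and Cacna1d were lost in 14 of 27, 8 of 28 and 22 of 28 alternative settings. Among all genes tested 18.4% rose and 21.0% fell in Bmal1-/- cells, and 9.5% rose and 14.4% fell in Clock-/- cells.

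Kinases and arrestins switch off and internalise activated receptors. Of 7 such genes 6 were tested, and 4 rose and 0 fell in Bmal1-/- cells (median 0.63), whereas 0 rose and 2 fell in Clock-/- cells (median -0.12). Over all genes tested the shares were 18.4% risen and 21.0% fallen in Bmal1-/- cells, and 9.5% and 14.4% in Clock-/- cells. The arrestin genes Arrb1, at 1.21 (SE 0.18, limma adjusted p = 3.35e-04), and Arrb2, at 0.62 (SE 0.08, limma adjusted p = 1.01e-04, lost in 1 of 28 alternative settings), rose in Bmal1-/- cells with the kinase gene Grk5, at 1.11 (SE 0.13, limma adjusted p = 7.24e-05). Arrb2 fell in Clock-/- cells, at -0.62 (SE 0.08, limma adjusted p = 2.09e-04), and Arrb1 and Grk5 had -0.06 and 0.05 there. Grk3 had -0.63 in Bmal1-/- cells (limma adjusted p = 0.0102) and -0.70 in Clock-/- cells (limma adjusted p = 0.00908), a call lost in 22 of 28 alternative settings. Of the SH2-domain tyrosine phosphatases recruited by the receptors, Ptpn6 (SHP-1) rose by 0.87 in Clock-/- cells (SE 0.12, limma adjusted p = 4.58e-04) and had -0.17 in Bmal1-/- cells. Ptpn11 (SHP-2) had -0.0026 in Bmal1-/- cells and 0.04 in Clock-/- cells.

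Other receptors that share the Gi/o route were set beside the family. Of 34 on the list 18 had a row and 11 were tested, and 4 rose and 5 fell in Bmal1-/- cells (median -0.22) while 2 rose and 3 fell in Clock-/- cells (median 0.20). Among all genes tested 18.4% rose and 21.0% fell in Bmal1-/- cells, and 9.5% rose and 14.4% fell in Clock-/- cells. Gabbr2, a subunit of the GABA-B receptor, had the most negative log2 fold change of the list in each knockout, with 1.16, 0.998 and 1.25 TPM in Bmal1-/- libraries, 6.04, 3.68 and 7.10 TPM in Clock-/- libraries and 69.7, 70.2 and 57.5 TPM in WT libraries. Its log2 fold change was -4.96 in Bmal1-/- cells (SE 0.19, limma adjusted p = 5.30e-08) and -3.37 in Clock-/- cells (SE 0.19, limma adjusted p = 9.62e-07). Drd2, the dopamine D2 receptor, was listed at 0 in all 3 Bmal1-/- libraries and in 2 of 3 Clock-/- libraries and had 1.30 to 2.66 TPM in WT libraries. Adora1, the adenosine A1 receptor, was at -0.56 in Bmal1-/- cells (limma adjusted p = 0.00335, lost in 15 of 27 alternative settings) and -2.004 in Clock-/- cells (SE 0.12, limma adjusted p = 1.72e-06). Adra2a, the adrenergic receptor through which adrenaline restrains insulin release, was named after its values were seen. It was the most abundant receptor of the list and rose in both knockouts, at 174 to 182 TPM in Bmal1-/- libraries, 152 to 204 TPM in Clock-/- libraries and 115 to 120 TPM in WT libraries. In WT cells Sstr3, at 101 to 105 TPM, was therefore just below Adra2a, and in Bmal1-/- cells, at 19.5 to 22.6 TPM, it was far below it.

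Of 11 receptors closest to the family in sequence, such as the opioid and galanin receptors, 4 were tested. In Bmal1-/- cells 1 rose and 2 fell, and in Clock-/- cells 1 rose and 1 fell, with medians of -0.24 and 0.38. The shares of all genes tested were 18.4% risen and 21.0% fallen in Bmal1-/- cells, and 9.5% and 14.4% in Clock-/- cells. Oprd1, the delta opioid receptor, had 1.12, 1.01 and 0.941 TPM in Bmal1-/- libraries, 0.486, 0.201 and 0.703 TPM in Clock-/- libraries and 14.5, 14.5 and 13.3 TPM in WT libraries, a log2 fold change of -2.90 in Bmal1-/- and -3.38 in Clock-/- cells. Oprm1, the mu opioid receptor, was at -0.81 in Bmal1-/- cells (SE 0.14, limma adjusted p = 9.72e-04, lost in 1 of 27 alternative settings) and had 0.30 in Clock-/- cells (limma adjusted p = 0.128). Galr1, a galanin receptor, rose in both knockouts, by 0.70 in Bmal1-/- cells (SE 0.10, limma adjusted p = 1.99e-04) and by 0.60 in Clock-/- cells (SE 0.10, limma adjusted p = 9.48e-04).

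**Figure D5:**
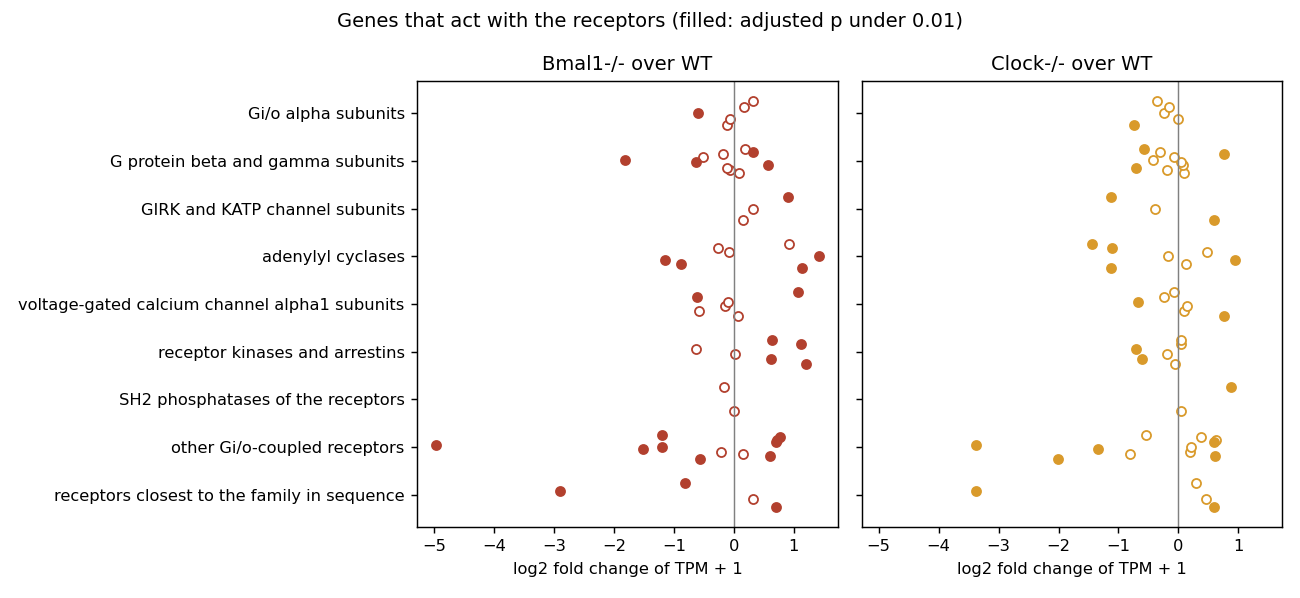
Log2 fold changes of TPM + 1 in Bmal1-/- (left) and Clock-/- (right) cells over WT for the tested genes of 9 lists that act with the receptors or resemble them. Each circle is a gene, filled where the adjusted p is under 0.01. Receptor kinases and arrestins have 4 filled circles to the right of 0 in Bmal1-/- cells and 2 to the left in Clock-/- cells, and the leftmost circle of each panel is Gabbr2 at -4.96 in Bmal1-/- and Oprd1 at -3.38 in Clock-/- cells. Over all genes tested 18.4% rose in Bmal1-/- cells and 14.4% fell in Clock-/- cells.

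The genes whose log2(TPM + 1) pattern over the 9 libraries was most like each receptor were ranked by Pearson correlation among genes averaging at least 5 TPM (10821 or 10822 genes). For Sstr3 these were Arfgap3 (0.998), a regulator of Golgi vesicle transport, the kinase gene Plk2 (0.994) and Nptx2 (0.993), which encodes a secreted pentraxin of synapses. Nptx2 had log2 fold changes of -5.07 in Bmal1-/- and -2.87 in Clock-/- cells. For Sstr5 they were Htatip2 (0.993), the endopeptidase gene Ecel1 (0.990) and the adaptor gene Dok5 (0.990), which fell by nearly equal amounts in the knockouts, with Ecel1 at -2.96 in Bmal1-/- and -2.98 in Clock-/- cells. For Sstr1 they were Tmed2 (0.986), a cargo receptor of early secretory vesicles, Cyb5r1 (0.985) and Ly6e (0.984). For Sstr2 they were Tspan31 (0.984), Mbp (0.980), the myelin basic protein gene, and Glb1 (0.980), which encodes lysosomal beta-galactosidase. Mbp rose by 1.21 in Bmal1-/- cells and by 0.85 in Clock-/- cells. With 3 wells of each of 3 lines, such a correlation mainly records that genes share the order of the 3 lines.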

How the data were processed

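The authors aligned paired-end poly(A) reads to mm10 with the gencode vM10 annotation (STAR 2.5.0), counted exons with featureCounts 1.5.3 and deposited TPM for 20599 genes. How TPM was made from the counts, and whether strand was used, is not given in the sources used here. The authors' DESeq2 1.22.1 comparison columns (fold changes and p-values) were not used. For THRAP3 ChIP-seq the authors aligned reads with Bowtie2 2.2.4 and called peaks per sample over input with HOMER. The deposited lists give a normalised tag signal, a peak score and a fold ratio over input, all used as deposited.

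Genes with at least 1 TPM in at least 3 of 9 libraries (15031) were fitted as log2(TPM + 1) by genotype with limma 3.58.1 (eBayes with trend, R 4.3.3), all libraries in 1 fit, with Benjamini-Hochberg adjustment. A gene rose or fell at an adjusted p under 0.01. It was counted as called where the absolute log2 fold change was also above 1. Fold changes are on the log2(TPM + 1) scale, which understates changes of low genes. Standard errors are limma's.

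Multiplied by exon length (GENCODE vM21), 100.0% of 12280 to 14344 values per library, over genes whose annotation was the same, were within 0.1 of a whole number of reads. These reads give depths. Read ratios between genotypes are pooled reads divided by the reads that 1 TPM stood for in each library, summed over the libraries of a genotype, with exact binomial 95% intervals that cover counting error only. No count model was fitted. The annotation versions of Sstr3 and Sstr5 differed from those the authors used. The values of Sstr5 came out whole in all 9 libraries with the vM21 length and are given, and those of Sstr3 did not and are not given.

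Named genes were the receptors, the ligand genes, the 2 tested genes of each list with the largest absolute fold change in each knockout, and the 3 genes most like each receptor. Others were named after their values were seen, as said there. The members and lists were chosen with earlier results of these data known. Alternatives were a replicate block, other pseudocounts and filters, other scalings, the chromosome median subtracted and each library left out. Leaving out libraries while keeping the genes of the 9-library filter was chosen after seeing the data. The fit was tested on simulated data. Permutation tests used SciPy 1.17.1, and protein alignments Biopython 1.88. Libraries of the other assays of the series were not analysed here.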

Additional observations from a re-analysis of the deposited data

Results flagged for a closer look

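The genes looked at here were the receptors, the ligand genes and the genes named from each list by their largest fold changes. Those are given that passed the limma test of Bmal1-/- against Clock-/- cells with a log2 difference beyond 1 in either direction. In that contrast 2182 of the 15031 genes tested were called in this way, and 44.6% passed the test at any size of difference. The list genes had been picked for large fold changes against WT. The number given here therefore says nothing of the pathway as such. Other genes of the lists met the same rule and are left out below, such as Gabbr1 at -1.41 and Adcy2 at -1.02. Among the receptors this held for Sstr3, at -1.06, and among the ligands for Sst, at -4.00. Among the G protein subunits and effectors the difference was -1.39 for Gng12, 2.02 for Kcnj6, 1.59 for Adcy6, -2.09 for Adcy3, 2.35 for Adcy9, 2.26 for Adcy1 and 1.15 for Cacna1h. Among kinases, arrestins and phosphatases it was 1.26 for Arrb1, 1.06 for Grk5, 1.24 for Arrb2 and -1.04 for Ptpn6. Among the other receptors it was -1.59 for Gabbr2, 1.44 for Adora1 and -1.11 for Oprm1. Each difference is Bmal1-/- minus Clock-/-, so that a negative value means a lower level in Bmal1-/- cells, and the knockouts are 1 clone each.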

How the results depend on the processing

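Each receptor kept its direction and its side of the threshold against WT in every alternative in which it was fitted. Log2 fold changes ran from -3.93 to -1.04 for Sstr1, 1.26 to 2.29 for Sstr2, -2.29 to -1.99 for Sstr3 and -3.46 to -1.30 for Sstr5 in Bmal1-/- cells, and from -2.41 to -1.03, 1.15 to 1.92, -1.30 to -0.90 and -3.59 to -1.68 in the same order of genes in Clock-/- cells. A pseudocount of 0.1 moved the low receptors most, to -3.93 for Sstr1 and -3.46 for Sstr5 in Bmal1-/- cells. The number of receptors that rose or fell was 4 in each knockout, 1 with a filter of 5 TPM, and 2 to 4 when libraries were left out. It was 2 without WT replicate 1, 2 or 3, since Sstr1 and Sstr5 then no longer reached 1 TPM in 3 libraries, and 4 when the genes of the 9-library filter were kept, a setting added after seeing the data. The difference between the knockouts ran from -1.52 to -0.013 for Sstr1, 0.00544 to 0.45 for Sstr2 and -1.25 to -0.93 for Sstr3, and passed the threshold in every alternative for Sstr3 and in none for Sstr1 and Sstr2. That of Sstr5 turned to -0.051 (limma adjusted p = 0.802) with the chromosome median subtracted. The number of receptor genes with a THRAP3 peak was 0 in Bmal1-/- samples 1 and 2 and in WT sample 2 under both stricter peak rules.

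Genes called over the whole table numbered 1773 in Bmal1-/- cells, 1113 in Clock-/- cells (730 with a filter of 5 TPM) and 2182 between the knockouts, with ranges of 1591 to 1809, 935 to 1220 and 1945 to 2301 on leaving out a library. With replicate number as a block the counts were 1758, 1089 and 2155. The numbers did not pair the libraries, as same-numbered libraries deviated together with correlations of -0.208 to 0.0742, against -0.163 to 0.212 for other pairs. Of 94 calls of the other named genes, 20 were lost in at least 1 alternative. Sstr1 and Sstr5 rest on 1 to 12 reads a genotype in the knockouts, which limits how well their levels there are known.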
